A study of Homo sapiens with 6 samples.

Results

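Homeobox genes encode transcription factors that set regional and cell-type identity during development, and this account describes those measured in IMR32 neuroblastoma cells with and without the compound sAKZ692. The genes were taken by symbol: those starting with HOXA to HOXD, PHOX2 or NKX, and those in which LHX, PAX, MEIS, PBX, DLX, MSX, POU, IRX, ISL or the stem of SIX2 is followed by a digit, without antisense symbols. The rule matched 46 of the 11351 genes with values, and 35 of them reached a mean of 1 TPM over all libraries and were tested, out of 9137 genes tested in all. TPM, a relative transcript abundance, takes transcript length and library total into account, which lets levels of different genes be compared. The other 11 genes had means between 0.0814 and 0.885 TPM and were not tested. Values of single genes are given for 42 of the 46, and counts cover all of them.

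RNA was sequenced from IMR32, an established human neuroblastoma line known for its amplified MYCN gene, after 24 h with 20 µM sAKZ692 or with DMSO, the solvent. The study describes sAKZ692 as a small-molecule activator of NRF2, the transcription factor of the antioxidant response, and asked which transcripts respond to it. Each group had 3 libraries, of the same line, medium and time point. The line is a single tumour-derived culture, and nothing in the labels tells if replicates came from separate cultures, so that p-values cover only differences among these libraries, which may be technical. The labels give only a nominal sequencing depth, and the number of reads behind each value is unknown, because TPM does not keep it.

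The labelled line was checked against its known markers. With DMSO, MYCN was at 1389 ± 41.9 TPM, the transcription factor gene HAND2 at 464 ± 11 TPM and GATA3 at 272 ± 12 TPM (SD, n = 3). TH, which encodes the first enzyme of catecholamine synthesis, was low, at 0.366 ± 0.274 TPM. PHOX2A, ISL1 and DBH had no values among the genes used here. Replicate 3 of sAKZ692 stood apart. Over the tested genes, on log2(TPM + 1), it correlated with the other treated libraries at r = 0.971 to 0.972, against 0.992 between those, and its listed genes filled 65.9% of the TPM scale, against 61.2% to 61.9% in the other libraries. Several results are therefore given with and without it.

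A homeodomain is a DNA-binding fold of helices that recognises short AT-rich sites, and homeodomain proteins gain specificity by binding DNA together. HOX proteins, which are encoded in clusters and pattern the body axis, pair with the TALE cofactors PBX and MEIS. HAND2 and GATA3, which are no homeobox genes, belong to the circuit of transcription factors that maintains noradrenergic neuroblastoma identity. The LIM, POU, sine oculis, DLX, MSX, NKX and Iroquois families act in neurons, placodes, limbs, heart and other tissues. PAX proteins bind DNA by a paired domain, and PAX1 has no homeodomain.

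Sequences upstream of the annotated starts are shown for homeobox genes on which the results below turn, to let the base composition and motifs be read beside the expression values. RefSeq windows of 300 bases, from 250 before to 50 after a gene's start in GRCh38.p14, matched 31 of the 46 genes, and 5 of the 9 genes that passed the test. Only the bases before the start are printed, 5′ to 3′ on the gene's own strand. In SIX2, the gene that fell, all 250 bases are given and the capitals mark the MEIS site core TGACAG on either strand. In MSX1, ISL2 and POU2F2, which rose, the last 150 bases are given and the capitals mark CpG dinucleotides. In LHX4, a gene of low level, the capitals mark a core of the antioxidant response element that NRF2 binds, TGACNNNGC, here on the reverse strand. Bases just after the start were found in a GENCODE 29 transcript of the gene for MSX1, ISL2 and POU2F2, but not for SIX2 and LHX4.
SIX2, GRCh38.p14 chr2:45009453-45009702, minus strand: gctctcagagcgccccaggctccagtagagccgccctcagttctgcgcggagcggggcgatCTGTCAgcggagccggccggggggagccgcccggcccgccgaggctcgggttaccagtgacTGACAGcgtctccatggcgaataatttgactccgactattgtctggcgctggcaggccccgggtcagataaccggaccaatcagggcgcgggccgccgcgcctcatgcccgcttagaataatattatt
MSX1, GRCh38.p14 chr4:4859515-4859664, plus strand: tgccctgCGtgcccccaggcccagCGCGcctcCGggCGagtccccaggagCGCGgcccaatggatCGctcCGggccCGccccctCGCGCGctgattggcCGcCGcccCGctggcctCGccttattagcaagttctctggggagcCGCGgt
ISL2, GRCh38.p14 chr15:76336623-76336772, plus strand: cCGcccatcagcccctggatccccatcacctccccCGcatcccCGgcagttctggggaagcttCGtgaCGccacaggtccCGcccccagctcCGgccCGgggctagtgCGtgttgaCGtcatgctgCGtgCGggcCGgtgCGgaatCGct
POU2F2, GRCh38.p14 chr19:42132447-42132596, minus strand: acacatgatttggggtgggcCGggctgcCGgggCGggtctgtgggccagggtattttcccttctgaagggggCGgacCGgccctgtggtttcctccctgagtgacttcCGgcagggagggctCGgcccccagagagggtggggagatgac
LHX4, GRCh38.p14 chr1:180230114-180230263, plus strand: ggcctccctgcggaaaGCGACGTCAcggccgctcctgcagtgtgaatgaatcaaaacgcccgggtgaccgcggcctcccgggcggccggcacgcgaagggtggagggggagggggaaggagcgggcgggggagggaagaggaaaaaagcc

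The printed stretch of MSX1 held 19 CpG dinucleotides and that of ISL2 15, while that of POU2F2 held 7. The 150 bases before each annotated start of MEIS3, which also rose and is not printed, held 4 and 7. In SIX2, which fell, the 250 printed bases held 26. Over their whole windows, homeobox genes had a median GC content of 65.0% and a median of 23 CpG dinucleotides, against 58.7% and 14 over all windows in the table. The antioxidant response element core TGACNNNGC, searched on both strands, was present in the windows of 3 of the 31 genes, DLX1, DLX2 and LHX4, and in 16.1% of the 27305 genes with a window. The E-box CACGTG, the site of MYC family proteins, was present in 4 of the 31 (DLX2, HOXD1, HOXD13 and IRX1) and in 8.77% of all genes. The MEIS core TGACAG, which can overlap the antioxidant core because both begin with TGAC, was present in 4 (PAX2, POU4F1, SIX2 and SIX6) and in 18.6% of all genes. The homeodomain palindrome TAATTA was present in 1, MSX2, and in 5.95% of all genes. None of the genes that rose and had a window, ISL2, MEIS3, MSX1 and POU2F2, held any of these 4 motifs in it.

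In DMSO the levels of homeobox transcripts spanned a wide range. MEIS1 was at 456, 421 and 391 TPM in replicates 1, 2 and 3. SIX2, a factor that maintains progenitor cells in the kidney, was at 111 ± 0.863 TPM (SD, n = 3), MEIS3 at 70.1 ± 0.749 TPM and PBX2 at 50.0 ± 0.412 TPM, and the ranges of these 4 genes did not overlap. Of the 35 tested genes, 3 lay at 100 TPM or more, 13 between 10 and 100 TPM, 18 between 1 and 10 TPM and 1, HOXD1, below 1 TPM with DMSO.

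**Figure D1:**
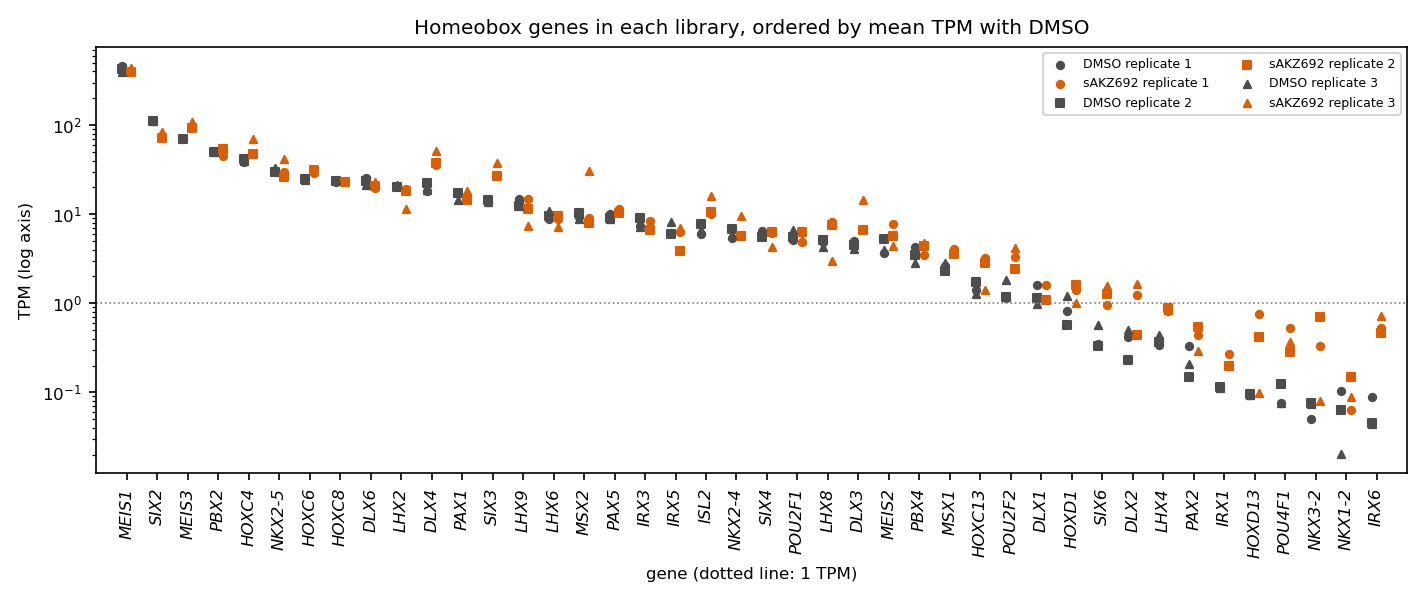
TPM on a log axis of 42 homeobox genes in each of the 6 libraries, ordered by the mean with DMSO. Grey symbols are DMSO and orange symbols sAKZ692, with circles, squares and triangles for replicates 1, 2 and 3. MEIS1 lies above the other genes shown, and the treated libraries lie above the DMSO libraries for most genes below 1 TPM.

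With sAKZ692, 8 of the 35 tested homeobox genes were higher and 1 was lower at an adjusted p under 0.05 in limma. SIX3, DLX4, POU2F2, DLX3, ISL2, MEIS3, MSX1 and HOXC6 rose, and SIX2 fell. In either direction, 32.6% of all tested genes passed. A rise of at least 1 on the log2 scale was seen in 2, SIX3 and DLX4, and in 4.29% of all tested genes. Both reached 1 only with replicate 3 of sAKZ692, which lay 1.354 and 1.335 above the DMSO mean. Replicates 1 and 2 lay 0.88 and 0.90 above it for SIX3, and 0.81 and 0.91 for DLX4. Over all 9137 tested genes 24.1% were higher and 8.5% lower, against 22.9% and 2.86% of the homeobox genes, so that the share that rose was close to that of all genes. Fold changes are on the log2(TPM + 1) scale, which understates the change of low genes, and fewer cells with a transcript and less transcript per cell cannot be told apart in bulk RNA. The median log2 fold change was 0.16 over the homeobox genes and 0.14 over all tested genes. Treated and DMSO libraries did not overlap in 12 tested homeobox genes that were higher and 2 that were lower, while over all tested genes this held for 35.9% and 14.6%. Leaving out replicate 3 of sAKZ692 gave 13 higher and 1 lower, against 3163 and 1321 of the 9137 genes. Median-ratio scaling gave 5 higher and 1 lower, against 1369 and 1478 over all tested genes. Quantile normalization gave 4 and 2, against 1073 and 1188. SIX3, DLX4, MEIS3 and SIX2 passed in all 16 alternatives to the main analysis.

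**Figure D2:**
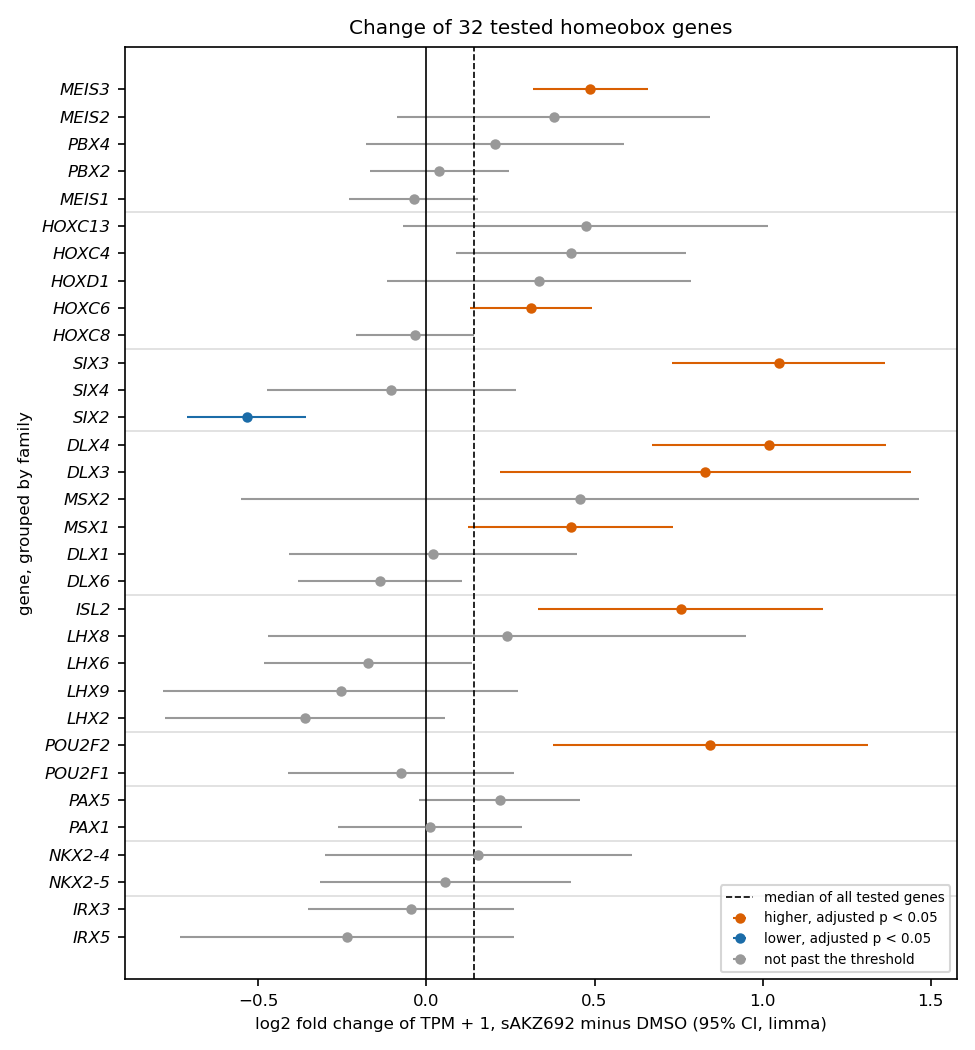
Log2 fold change of TPM + 1, sAKZ692 minus DMSO, for 32 of the 35 tested homeobox genes, grouped by family. Points are limma estimates with 95% confidence intervals, coloured by the test, and the dashed line is the median of all tested genes at 0.14. SIX3 and DLX4 have the highest estimates, at 1.05 and 1.02, and SIX2 the lowest, at -0.53.

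Among relatives of the fly gene sine oculis, which act with EYA cofactors in eye, ear, kidney and muscle development, SIX3 rose and SIX2 fell. SIX3, required for forebrain and eye development, was at 13.8, 14.6 and 13.5 TPM with DMSO and at 26.6, 27.0 and 37.3 TPM with sAKZ692. Every treated library lay above every DMSO library, and replicate 3 was the highest. The log2 fold change was 1.05 (SE 0.14, adjusted p = 0.00193). SIX2 was at 111, 112 and 111 TPM with DMSO and at 75.1, 71.7 and 83.6 TPM with sAKZ692. All treated libraries were lower, with replicate 3 nearest to DMSO, and the gene fell by 0.53 on the log2 scale (SE 0.08, adjusted p = 0.00263). In SIX2 and SIX3 both scalings kept the direction and the call, with log2 fold changes of -0.68 and 0.90 after median-ratio scaling. SIX4 averaged 6.02 ± 0.482 TPM in DMSO and 5.59 ± 1.17 TPM in treated libraries (SD, n = 3) and did not pass (adjusted p = 0.641).

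SIX3 and SIX2 are neighbours in the RefSeq annotation, with 0 protein-coding genes between them. SIX2 stayed the more abundant transcript in every library, but with DMSO it was at 111 TPM against 14 for SIX3, and with sAKZ692 at 76.8 against 30.3 TPM. SIX6, a paralogue active in the eye and pituitary, had a mean under 1 TPM, with 0.352, 0.329 and 0.569 TPM in the DMSO and 0.946, 1.27 and 1.57 TPM in the treated libraries.

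The DLX genes, descendants of Distal-less that act in forebrain, skin, teeth and facial skeleton, included another neighbouring pair. DLX4 was at 18.1, 22.1 and 18.8 TPM with DMSO and at 35.2, 37.7 and 51.0 TPM with sAKZ692. All treated libraries lay above the DMSO libraries, and the log2 fold change was 1.02 (SE 0.15, adjusted p = 0.00297). DLX3, which acts in skin appendages, teeth and bone, was at 4.97, 4.48 and 4.07 TPM with DMSO and at 6.87, 6.71 and 14.3 TPM with sAKZ692, again without overlap. Its log2 fold change was 0.83 (SE 0.26, adjusted p = 0.0454) with all libraries and 0.50 (adjusted p = 0.00937) without replicate 3 of sAKZ692, the highest library. The call of DLX3 was lost in 8 of 16 alternatives, among them each omission of a DMSO library and both scalings, with adjusted p up to 0.269.

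DLX4 and DLX3 have 0 protein-coding genes between them and both rose. DLX1 and DLX2, also neighbours and known for their role in inhibitory neurons of the forebrain, were low. DLX1 averaged 1.24 ± 0.329 TPM without and 1.27 ± 0.295 TPM with sAKZ692 (SD, n = 3; adjusted p = 0.941). DLX2 had a mean under 1 TPM, and its treated libraries were at 1.24, 0.444 and 1.66 TPM against 0.420, 0.230 and 0.507 TPM with DMSO. DLX6 was at 23.4 ± 2.10 and 21.1 ± 1.93 TPM (adjusted p = 0.337).

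**Figure D3:**
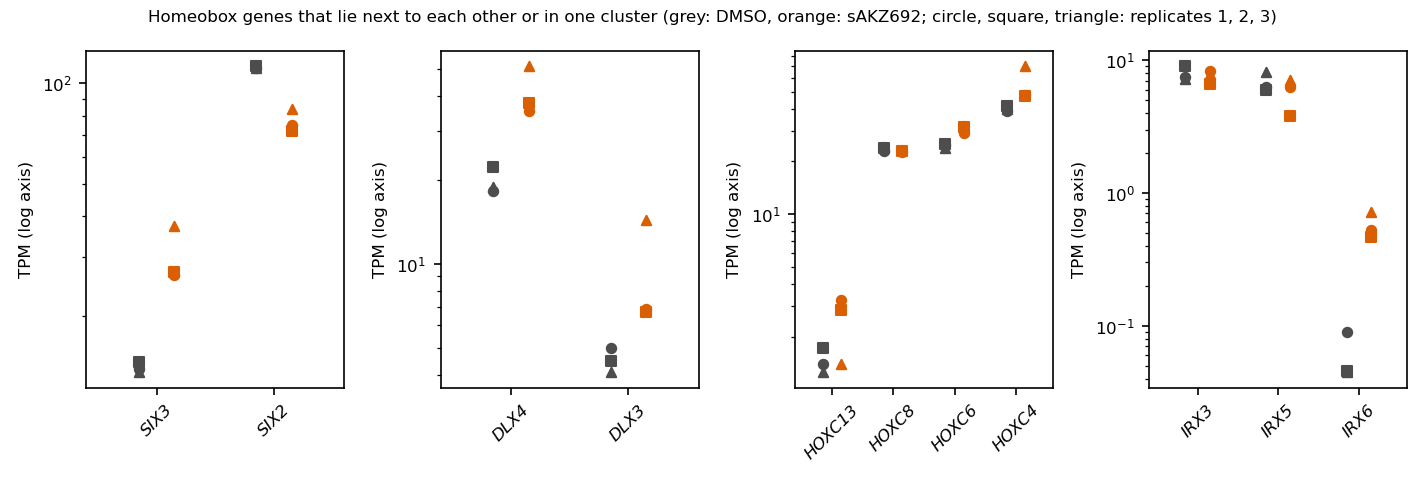
TPM on log axes of homeobox genes that are neighbours or share a cluster, with grey for DMSO, orange for sAKZ692 and circles, squares and triangles for replicates 1, 2 and 3. SIX3 is higher and SIX2 lower in all treated libraries, DLX4 and DLX3 are both higher, and HOXC8 lies between 22.7 and 24.1 TPM in all 6.

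The MSX genes, which respond to BMP signals in the facial skeleton, teeth and neural crest, differed in how the treated libraries behaved. MSX1 was at 2.64, 2.32 and 2.83 TPM with DMSO and at 4.11, 3.59 and 3.83 TPM with sAKZ692, a log2 fold change of 0.43 (SE 0.13, adjusted p = 0.0410). The groups did not overlap, but the call was lost in 8 of the 15 alternatives that tested the gene. Without either replicate 1 or replicate 2 of sAKZ692 its adjusted p was 0.109 and 0.0693, and after quantile normalization its log2 fold change was 0.02. MSX2 was at 9.32, 10.2 and 8.73 TPM with DMSO and at 9.15, 8.0 and 30.9 TPM with sAKZ692. Its treated mean thus rested on replicate 3, and the log2 fold change was 0.46 with that library (adjusted p = 0.442) and -0.12 without it (adjusted p = 0.399).

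Among the TALE cofactors, which bind DNA beside HOX proteins, MEIS3 rose. It was at 70.4, 69.3 and 70.7 TPM with DMSO and at 96.1, 93.6 and 107 TPM with sAKZ692, with no overlap and a log2 fold change of 0.49 (SE 0.07, adjusted p = 0.00326). MEIS1, the most abundant member of the family and a partner of HOX proteins in blood and neuroblastoma cells, was at 396, 396 and 443 TPM with sAKZ692, inside its DMSO range of 391 to 456 TPM. Its log2 fold change was -0.04, with a 95% confidence interval from -0.23 to 0.15 (adjusted p = 0.750). MEIS2 was at 3.66, 5.23 and 4.0 TPM with DMSO and at 7.68, 5.76 and 4.42 TPM with sAKZ692. It did not pass with all libraries (adjusted p = 0.183) and passed without replicate 3, with a log2 fold change of 0.54 (adjusted p = 0.0250).

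PBX2 and PBX4, cofactors that bind DNA beside HOX and MEIS proteins, did not pass the test. PBX2 was at 49.7, 50.4 and 49.8 TPM with DMSO and at 45.5, 54.1 and 55.1 TPM with sAKZ692, and its groups overlapped (adjusted p = 0.764). PBX4 was at 3.52 ± 0.703 and 4.19 ± 0.600 TPM (SD, n = 3; adjusted p = 0.367).

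Of the HOX genes with values, 4 belonged to the HOXC cluster and 2 to the HOXD cluster, and 1 of the 5 tested rose. HOXC6 was at 24.9, 25.0 and 24.0 TPM with DMSO and at 29.1, 31.5 and 31.9 TPM with sAKZ692, a log2 fold change of 0.31 (SE 0.08, adjusted p = 0.0205). The groups did not overlap, but both scalings brought the log2 fold change to 0.17 and ended the call, as did the omission of any 1 DMSO library or of replicate 2 of sAKZ692 (adjusted p up to 0.144). HOXC4 was at 38.5, 41.6 and 39.7 TPM with DMSO and at 48.0, 47.4 and 69.7 TPM with sAKZ692, with no overlap and an adjusted p of 0.0586. Without replicate 3 of sAKZ692 its log2 fold change was 0.25 rather than 0.43, and it passed (adjusted p = 0.0128). In the GENCODE 29 annotation exons of HOXC4 and HOXC6 overlap on the same strand, so that the division of reads between them is uncertain.

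HOXC8, another gene of the HOXC cluster, was at 22.9, 23.7 and 24.1 TPM with DMSO and at 22.7, 23.1 and 23.2 TPM with sAKZ692. This was the narrowest range of the 4 HOXC genes, and the log2 fold change was -0.03, with a 95% confidence interval from -0.21 to 0.14 (adjusted p = 0.756). HOXC13, a gene of the distal end of the cluster that acts in hair and nails, was at 1.39, 1.72 and 1.26 TPM with DMSO and at 3.24, 2.85 and 1.41 TPM with sAKZ692. Replicate 3 lay within its DMSO range, and the log2 fold change was 0.47 with it (adjusted p = 0.156) and 0.72 without it (adjusted p = 0.00497). HOXD13, a limb and digit gene below 1 TPM, showed the same order of libraries, at 0.767, 0.423 and 0.0996 TPM with sAKZ692 against 0.0927 to 0.0948 TPM with DMSO. HOXD1 was at 0.865 ± 0.312 and 1.34 ± 0.292 TPM (SD, n = 3; adjusted p = 0.219).

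Genes on the opposite strand overlap exons of HOXC6, HOXC13, HOXD1, IRX1, IRX3, ISL2, LHX2, LHX4, LHX8, MEIS1, MEIS2, NKX1-2, NKX2-4, PAX5 and POU4F1 in GENCODE 29. Since the use of strand is not given in the sources used here, reads from both strands cannot be told apart for these genes.

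**Figure D4:**
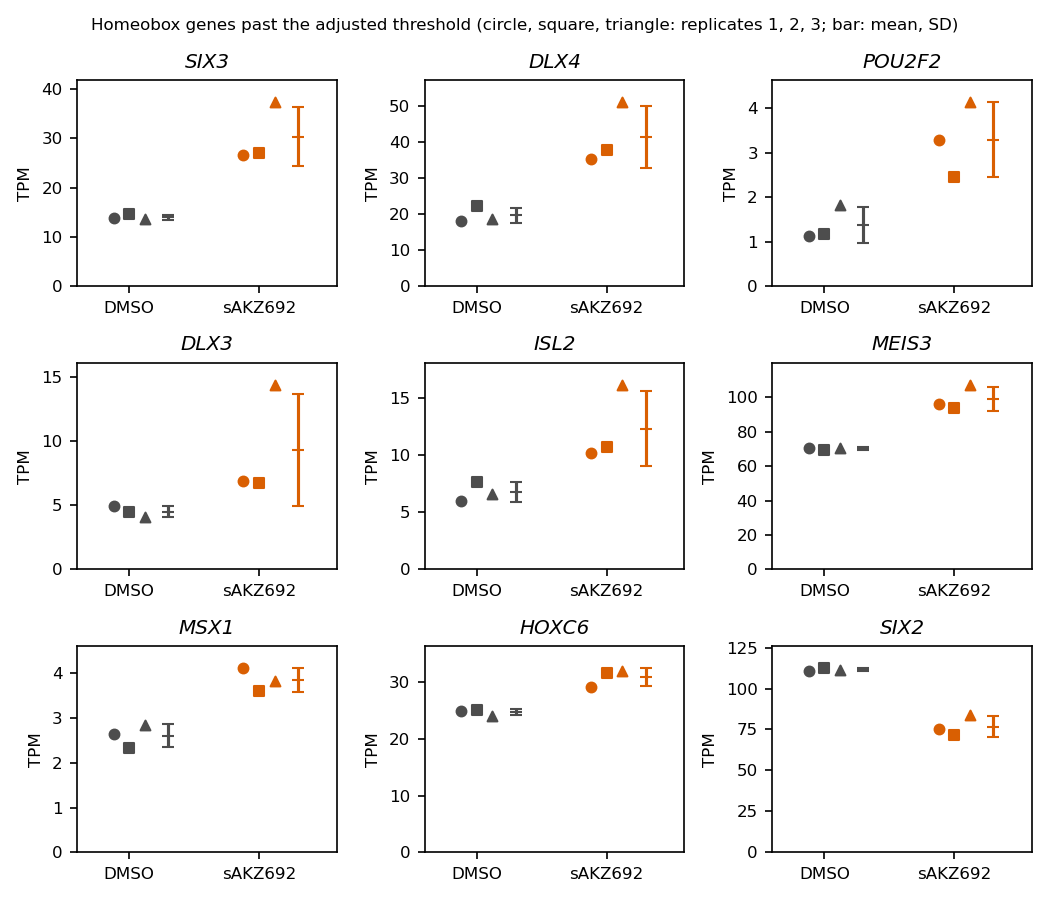
TPM of the 9 homeobox genes past the adjusted threshold in each library, with each axis starting at 0. Grey is DMSO and orange sAKZ692, circles, squares and triangles are replicates 1, 2 and 3, and the bar beside them is the mean with its SD. The groups do not overlap in any panel, and replicate 3 of sAKZ692 is the highest library for SIX3, DLX4, POU2F2, DLX3, ISL2, MEIS3 and HOXC6.

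Of the 5 tested LIM-homeodomain genes, 1 rose. ISL2, which acts in motor neurons and retinal ganglion cells, was at 6.00, 7.69 and 6.62 TPM with DMSO and at 10.2, 10.7 and 16.1 TPM with sAKZ692, with no overlap. Its log2 fold change was 0.76 (SE 0.18, adjusted p = 0.0179), and 0.56 without replicate 3 of sAKZ692 (adjusted p = 0.00528). The call of ISL2 was lost without DMSO replicate 1 or 3 and after quantile normalization (adjusted p = 0.0697, 0.0667 and 0.127). LHX4, a pituitary and motor neuron gene with a mean under 1 TPM, was at 0.344, 0.370 and 0.436 TPM with DMSO and at 0.811, 0.890 and 0.835 TPM with sAKZ692. The treated libraries of LHX4 all lay above the DMSO libraries. Its window is printed above with an antioxidant response element core, and of the other genes with that core, DLX1 did not pass and the groups of DLX2 overlapped.

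The remaining LIM-homeodomain genes split by treated library. LHX8, which marks cholinergic neurons of the basal forebrain, was at 4.85, 5.10 and 4.30 TPM with DMSO and at 8.26, 7.50 and 2.96 TPM with sAKZ692. Replicates 1 and 2 lay above and replicate 3 below the DMSO range, and the log2 fold change was 0.24 with all libraries (adjusted p = 0.572) and 0.63 without replicate 3 (adjusted p = 0.00297). LHX2, a forebrain and eye gene, was at 20.6, 20.0 and 21.0 TPM with DMSO and at 19.0, 18.0 and 11.4 TPM with sAKZ692, lower in each treated library but not past the threshold (adjusted p = 0.157). LHX9 was at 13.2 ± 1.56 and 11.2 ± 3.83 TPM (SD, n = 3; adjusted p = 0.414), with replicate 3 of sAKZ692 at 7.30 TPM. LHX6, a gene of cortical interneurons, was at 9.73 ± 1.01 and 8.54 ± 1.18 TPM (adjusted p = 0.346).

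Of the POU genes, POU2F2, which encodes the octamer-binding factor OCT2 of B cells and neurons, rose. It was at 1.13, 1.17 and 1.84 TPM with DMSO and at 3.30, 2.45 and 4.14 TPM with sAKZ692, with no overlap and a log2 fold change of 0.84 (SE 0.20, adjusted p = 0.0173). The ratio of mean TPM was 2.39, the highest of the genes that passed. It no longer passed when DMSO replicate 1 or 2 was omitted (adjusted p = 0.0685 for each) and after quantile normalization (adjusted p = 0.153). The widely expressed relative POU2F1, which encodes OCT1, was at 5.77 ± 0.774 and 5.43 ± 0.802 TPM (SD, n = 3; adjusted p = 0.716). POU4F1, the sensory neuron factor BRN3A, was below 1 TPM in all libraries, at 0.0753 to 0.123 TPM with DMSO and 0.285 to 0.529 TPM with sAKZ692.

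The PAX, NKX and Iroquois genes held 0 genes past the threshold among 7 tested, while 32.6% of all tested genes passed in either direction. None of these 7 had an unadjusted p under 0.05 in limma. NKX2-5, the heart factor, was at 29.7, 29.7 and 32.8 TPM with DMSO and at 29.6, 26.3 and 41.7 TPM with sAKZ692 (adjusted p = 0.812). Replicate 2 of sAKZ692 lay below and replicate 3 above the DMSO range. NKX2-4 was at 5.45 to 6.86 TPM with DMSO and at 5.82, 5.63 and 9.5 TPM with sAKZ692 (adjusted p = 0.570), so that replicate 3 alone lay above the DMSO libraries.

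PAX1, a factor of the sclerotome and thymus, averaged 16.2 ± 1.58 TPM in DMSO and 16.4 ± 1.87 TPM in treated libraries (SD, n = 3; adjusted p = 0.952). PAX5, the B cell factor, was at 9.30 ± 0.615 and 11.0 ± 0.650 TPM (adjusted p = 0.139), its treated libraries all above the DMSO libraries. IRX3 was at 7.87 ± 0.968 and 7.59 ± 0.867 TPM (adjusted p = 0.812) and its neighbour IRX5 at 6.80 ± 1.18 and 5.72 ± 1.69 TPM (adjusted p = 0.419). Both act in neural and heart patterning. IRX6, the next gene in this cluster, was at 0.0896, 0.0455 and 0.0445 TPM with DMSO and at 0.530, 0.466 and 0.714 TPM with sAKZ692.

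In the 11 homeobox genes with means under 1 TPM, treated and DMSO libraries did not overlap in 7, each of them higher with sAKZ692: HOXD13, IRX1, IRX6, LHX4, NKX3-2, POU4F1 and SIX6. In the other 4, among them DLX2, NKX1-2 and PAX2, the groups overlapped. Of all 2214 genes with means under 1 TPM, 28.1% were higher and 2.48% lower without overlap. At these levels the number of reads behind a value is unknown and may be small, and the gap between groups can be narrow. In HOXD13 the lowest treated library was at 0.0996 TPM and the highest DMSO library at 0.0948 TPM. When no filter on low values was applied, IRX6, LHX4, POU4F1 and SIX6 passed in limma as higher, DLX3 no longer did (adjusted p = 0.0608), and 11 of the 46 homeobox genes were higher in all, against 20.1% of the 11351 genes. NKX3-2, a cartilage factor, was at 0.331, 0.699 and 0.0793 TPM with sAKZ692 against 0.0501 to 0.0755 TPM with DMSO, so that replicate 3 was again close to DMSO. IRX1 was at 0.197 to 0.272 TPM against 0.113 to 0.116 TPM, PAX2 at 0.294 to 0.549 against 0.151 to 0.329 TPM, and NKX1-2 at 0.0633 to 0.15 against 0.0204 to 0.104 TPM.

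Replicate 3 of sAKZ692 was the highest of the treated libraries for 21 of the 35 tested homeobox genes and the lowest for 9. Over all tested genes it was the highest for 41.6% and the lowest for 42.0%. The summed TPM of the 46 genes was 1384 to 1448 with DMSO, 1499 and 1461 in replicates 1 and 2 of sAKZ692, and 1659.5 in replicate 3. The median coefficient of variation of the tested homeobox genes was 9.74% with DMSO and 20.6% with sAKZ692, against 6.76% and 12.4% over all tested genes.

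**Figure D5:**
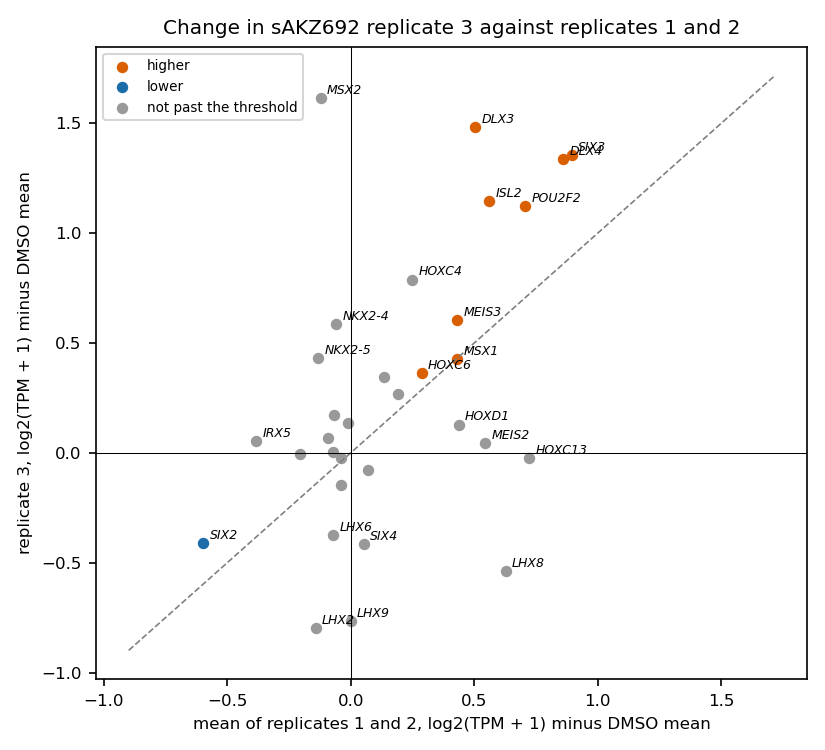
Change from the DMSO mean on log2(TPM + 1) in replicate 3 of sAKZ692 (vertical) against the mean of replicates 1 and 2 (horizontal) for 32 of the 35 tested homeobox genes, coloured by the test. Both axes use the same DMSO mean, and the dashed line marks equal change. MSX2 lies far above the line and LHX8 and HOXC13 below it. All 9 genes past the threshold have the same sign on both axes, which follows from their groups not overlapping.

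Counts in the gene lists that follow stand against those over all tested genes, of which 24.1% were higher and 8.5% lower. The number of all tested genes higher and lower was 2204 and 777, and it was 1369 and 1478 with median-ratio scaling, 1073 and 1188 with quantile normalization, and 3163 and 1321 without replicate 3 of sAKZ692. Without 1 DMSO library, 1213 to 1260 were higher and 404 to 443 lower.

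Of 37 tested homeobox genes outside the symbol rule, 9 were higher and 0 lower, with a median log2 fold change of 0.22. CUX2, a factor of upper-layer cortical neurons, rose from 2.21 ± 0.179 to 16.0 ± 12.8 TPM (SD, n = 3; adjusted p = 0.00921), ZFHX2 from 10.7 ± 0.0779 to 18.2 ± 1.63 TPM (adjusted p = 0.00239) and the ceramide synthase genes CERS4 and CERS2 from 1.45 ± 0.0357 to 4.90 ± 1.96 TPM (adjusted p = 0.0118) and from 162 ± 0.503 to 193 ± 9.93 TPM (adjusted p = 0.0225). Ceramide synthases are membrane enzymes, and these carry a homeobox-like region. Without replicate 3 of sAKZ692, at 30.7 TPM, the treated mean of CUX2 was 8.60 TPM and its log2 fold change 1.58 rather than 2.16. The call of CERS2 was lost after median-ratio scaling (adjusted p = 0.290) and without any 1 DMSO library or replicate 1 of sAKZ692, and that of CERS4 after quantile normalization (adjusted p = 0.0549). The count was 3 higher and 5 lower with median-ratio scaling, 3 and 3 with quantile normalization, and 14 and 2 without replicate 3 of sAKZ692. Without replicate 1 or 2 of sAKZ692 4 were higher, and without any 1 DMSO library 3 or 4.

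The other transcription factors of the noradrenergic circuit mostly did not pass. Of 16 tested, 3 were higher and 0 lower, with a median log2 fold change of 0.15. KLF7 rose from 14.4 ± 0.672 to 24.5 ± 2.15 TPM, KLF13 from 12.6 ± 0.958 to 18.4 ± 1.98 TPM and TBX2 from 82.3 ± 3.74 to 134 ± 39.4 TPM (SD, n = 3; adjusted p = 0.00211, 0.0128 and 0.0477). The call of TBX2 was lost under both scalings (adjusted p = 0.104 and 0.0664) and without any 1 library except replicate 3 of sAKZ692, and that of KLF13 after quantile normalization (adjusted p = 0.101) and without DMSO replicate 2 or 3 (adjusted p = 0.0541 and 0.0554). HAND2 and GATA3, at 496 ± 93.5 and 335 ± 66.3 TPM in treated libraries, did not pass (adjusted p = 0.643 and 0.130). The count was 2 higher and 4 lower with median-ratio scaling, 2 and 2 with quantile normalization, and 3 and 3 without replicate 3. Without replicate 1 or 2 of sAKZ692 2 were higher, and without any 1 DMSO library 1 or 2.

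Of 14 tested effector genes of the noradrenergic state, 6 were higher and 0 lower, with a median log2 fold change of 0.55. CHGB, a granin, rose from 26.3 ± 0.977 to 54.7 ± 8.21 TPM, GAP43, a growth cone protein gene, from 2.12 ± 0.291 to 12.6 ± 6.27 TPM, GCH1, which makes the cofactor of tyrosine hydroxylase, from 14.9 ± 0.638 to 25.9 ± 5.31 TPM and CYB561 from 9.05 ± 0.533 to 13.0 ± 1.35 TPM (SD, n = 3; adjusted p = 0.00110, 0.00259, 0.00999 and 0.0164). Without replicate 3 of sAKZ692, the treated mean of GAP43 was 8.98 TPM and its log2 fold change 1.68 rather than 2.03. The call of CYB561 was lost after quantile normalization (adjusted p = 0.169) and without DMSO replicate 2 or 3 or replicate 1 of sAKZ692. The count was 5 with median-ratio scaling, 4 with quantile normalization, 3 to 5 without any 1 DMSO library and 9 without replicate 3 of sAKZ692.

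Polycomb complexes keep developmental homeobox genes silent. Of 25 tested Polycomb genes, 6 were higher and 6 lower, with a median log2 fold change of -0.09. EZH2, the histone methyltransferase of the complex PRC2, fell from 95.2 ± 2.55 to 57.4 ± 5.96 TPM, its partner EED from 31.8 ± 2.22 to 19.3 ± 0.904 TPM, and the histone-binding subunit gene RBBP7 from 198 ± 3.38 to 151 ± 7.81 TPM (SD, n = 3; adjusted p = 0.00168, 0.00180 and 0.00466). The 6 genes that rose and the other genes that fell are not named, so that the named genes do not describe the whole list. The calls of EZH2, EED and RBBP7 held under both scalings. The count was 4 higher and 9 lower with median-ratio scaling, 4 and 7 with quantile normalization and 6 and 10 without replicate 3. It was 4 and 4 without any 1 DMSO library, and 5 and 4 without replicate 2 of sAKZ692.

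Of 18 tested genes of Trithorax and related factors that keep HOX genes active, 1 was higher and 1 lower, with a median of -0.03. AFF1 rose from 2.45 ± 0.149 to 4.44 ± 0.341 TPM and WDR5, a core subunit of the histone H3 methyltransferases, fell from 63.5 ± 2.50 to 47.4 ± 2.55 TPM (SD, n = 3; adjusted p = 0.00800 and 0.00601). Median-ratio scaling gave 1 higher and 4 lower, quantile normalization 0 and 3, where the call of AFF1 was lost (adjusted p = 0.195), and without replicate 3 of sAKZ692 1 and 6.

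Among protein partners of homeodomain factors, 5 of 16 tested genes were higher and 2 lower, with a median of 0.17. EYA4, whose protein binds that of SIX2 and its relatives, rose from 2.60 ± 0.469 to 7.85 ± 1.69 TPM, and LDB2, which bridges LIM-homeodomain proteins, from 2.61 ± 0.508 to 6.02 ± 1.72 TPM. GMNN, geminin, which restrains replication licensing and also binds homeodomain proteins, fell from 126 ± 5.26 to 67.7 ± 1.27 TPM, and the corepressor gene TLE3 from 39.5 ± 1.52 to 26.7 ± 3.44 TPM (SD, n = 3; adjusted p for the 4 genes 0.00266, 0.0121, 0.000389 and 0.00760). The call of LDB2 was lost after quantile normalization (adjusted p = 0.114) and without DMSO replicate 2 (adjusted p = 0.0529). The count was 3 higher and 3 lower with median-ratio scaling, 2 and 2 with quantile normalization and 7 and 4 without replicate 3. Without any other 1 library 2 or 3 were higher and 2 lower.

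Retinoic acid is a classical inducer of HOX genes. Of 7 tested retinoid receptor and response genes, 3 were higher and 0 lower, with a median of 0.88. ALDH1A3, a retinoic acid-forming enzyme, rose from 1.19 ± 0.323 to 3.58 ± 0.668 TPM, RARG, a retinoic acid receptor, from 10.9 ± 1.07 to 15.6 ± 1.14 TPM and STRA6, a retinol transporter, from 2.51 ± 0.708 to 12.1 ± 7.69 TPM (SD, n = 3; adjusted p = 0.00475, 0.0143 and 0.0303). The call of STRA6 was lost without any 1 library except replicate 3 of sAKZ692 and that of RARG without DMSO replicate 2 or 3, and both were lost after quantile normalization, which left 1 gene higher. Without any 1 DMSO library 1 or 2 were higher, and without replicate 3 of sAKZ692 5 were. Without that replicate STRA6 averaged 16.2 TPM in treated libraries, with a log2 fold change of 2.29 rather than 1.70.

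Markers of mesenchymal cells were checked because neuroblastoma cells can shift to such a state. Of 23 listed, 8 had values and none of these was listed at 0. Of the 5 tested, 1 was higher and 0 lower, THY1, at 67.3 ± 2.98 and 81.9 ± 4.23 TPM (SD, n = 3; adjusted p = 0.0237), a call lost after median-ratio scaling (adjusted p = 0.214) and without any 1 DMSO library. The summed level of the list was 998 to 1043 TPM with DMSO and 852 to 1699 TPM with sAKZ692, with the upper end in replicate 3 and 852 and 908 TPM in the other treated libraries. Without replicate 3 of sAKZ692, 1 was higher and 2 lower, and without replicate 2, 1 and 1. Its part in the homeobox results was not tested.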

How the data were processed

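The deposited table gives TPM per gene symbol for 3 DMSO and 3 sAKZ692 libraries. The authors used kallisto, per the submitters' processing notes. Its version, the genome build, the annotation, the use of strand and the way the listed genes were chosen are not stated there or in the labels. Members and gene lists were chosen with earlier results of these data known.

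From these values, log2(TPM + 1) was fitted by group with limma 3.58.1 (R 4.3.3, with a mean-variance trend) over the 9137 genes whose mean reached 1 TPM, and p-values were adjusted by Benjamini-Hochberg over all of them at a threshold of 0.05. The fit was tested on simulated data. Members were described, and of each other list up to 4 tested genes with the lowest adjusted p were named. The 25 noncoding RNAs of the HOX clusters were not analysed here, and a list of glial markers and single values of some genes, 4 of them members, are not reported here. The main fit did not pair libraries by replicate number, and the labels do not tell if the numbers mark pairs. Promoter windows are from RefSeq (GRCh38.p14), and exon overlaps from GENCODE 29. Alternatives changed the pseudocount, filter, scaling, variance model or libraries.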

Additional observations from a re-analysis of the deposited data

How the results depend on the processing

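Of 16 alternatives, 15 were chosen at the start, and limma array weights were added after seeing the data. SIX2, SIX3, DLX4 and MEIS3 passed in all 16, and none of the 9 genes that passed changed direction. Over all tested genes, 2204 were higher and 777 lower. Median-ratio scaling gave 1369 higher and 1478 lower, quantile normalization 1073 and 1188, and array weights 3267 and 1324. Leaving out 1 library gave 1213 to 3163 higher and 404 to 1321 lower. Homeobox genes called higher numbered 5 with median-ratio scaling, 4 with quantile normalization, 13 with array weights and 3 to 13 when 1 library was left out, and 2 were called lower after quantile normalization (SIX2 and LHX6). With the replicate number as a block, 5 were higher and 1 lower, and DLX3, HOXC6 and MSX1 were lost. Over all tested genes the block gave 1863 higher and 636 lower. Same-numbered libraries deviated from their group means with r = 0.0614, -0.0246 and 0.0415 for replicates 1, 2 and 3. Differently numbered libraries gave r from -0.0652 to 0.0411. Deviations within groups of 3 depend on each other, so these values cannot tell if same-numbered libraries were prepared together. The homeobox median was 0.0249 with median-ratio scaling and -0.0554 with quantile normalization, where that of all genes was -0.0317. The cause was not tested.

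The log2 fold changes that changed sign, given for the genes reported singly, all belonged to homeobox genes that had not passed. After median-ratio scaling they were -0.0619 for DLX1, -0.0905 for NKX2-5, -0.13 for PAX1 and -0.11 for PBX2. After quantile normalization they were -0.34 for DLX1, -0.0119 for HOXD1, -0.14 for LHX8, 0.10 for MEIS1, -0.0172 for MEIS2, -0.19 for NKX2-4, -0.0793 for NKX2-5, -0.19 for PAX1, -0.0554 for PAX5, -0.0279 for PBX2 and -0.20 for PBX4. With array weights they were -0.0567 for MSX2, -0.0324 for NKX2-4, -0.0984 for NKX2-5, -0.0950 for PAX1, 0.0130 for POU2F1 and 0.0229 for SIX4. Leaving out 1 library gave ranges of -0.0845 to 0.13 for DLX1, -0.11 to 0.0419 for IRX3, -0.0924 to 0.0179 for MEIS1, -0.12 to 0.79 for MSX2, -0.0596 to 0.27 for NKX2-4, -0.13 to 0.19 for NKX2-5, -0.0695 to 0.0850 for PAX1, -0.0105 to 0.12 for PBX2, -0.18 to 0.0126 for POU2F1 and -0.19 to 0.0519 for SIX4. TPM keeps no read number, so precision at low levels rests on the spread between libraries alone.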
